A study of Mus musculus with 6 samples.

Results

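The 10 genes described here concern T cell inhibition and were followed across mouse CD8 T cells activated with or without a kinase inhibitor. They are 8 receptor genes (Pdcd1, Ctla4, Lag3, Tigit, Havcr2, Cd160, Vsir and Btla), the transcription factor gene Tox and the ectonucleotidase gene Entpd1. They were taken by name from the deposited table, where all 10 had a gene row among 22095 gene rows. The cells were wild type CD8 T cells, purified as naive cells from splenocytes of the inbred mouse strain C57BL/6. Every library came from cells stimulated for 48 h through CD3, part of the T cell receptor complex, and the costimulatory receptor CD28, with recombinant mouse IL-2 present. The solvent DMSO was given to the cells of 3 libraries, and 10 nM ponatinib, a drug that blocks BCR-ABL among other tyrosine kinases, to the cells of the other 3. The age and sex of the mice, and whether replicates came from separate mice or cultures, were not stated in the labels, so p-values rest only on how far these samples differ among themselves, and that spread may be technical.

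Inhibitory receptors, often called immune checkpoints, are surface proteins that dampen signalling from the T cell receptor and from CD28. Most of them are low on naive CD8 T cells, are induced by activation as a brake, and stay high in T cells that are stimulated for a long time and become exhausted. PD-1 and BTLA recruit tyrosine phosphatases through motifs in their tails, CTLA-4 competes with CD28 for the ligands CD80 and CD86, and TIGIT competes with CD226 for PVR. TOX is a nuclear protein that sustains the exhausted state in chronic infection and tumours, and ENTPD1, also known as CD39, degrades extracellular ATP and is used as a marker of exhausted cells.

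To show the sequence next to which these receptor genes start, the 250 bases before the RefSeq start of 4 of them are printed on the sense strand, from RefSeq on GRCm38.p6, for Ctla4 and Tigit, which were lower with ponatinib, and Havcr2 and Cd160, which were higher. Capitals mark matches, on either strand, to TGGAAA (taken here as the NFAT core), TGANTCA (the AP-1 site) or ACGTG (the core of the hypoxia response element). Shorter forms of these motifs, such as GGAAA, were not searched. The regions are chr1:60908775-60909024 (plus strand), chr16:43664185-43664434 (minus strand), chr11:46454681-46454930 (plus strand) and chr3:96829352-96829601 (minus strand, upstream of the more distal of its RefSeq starts).
Ctla4: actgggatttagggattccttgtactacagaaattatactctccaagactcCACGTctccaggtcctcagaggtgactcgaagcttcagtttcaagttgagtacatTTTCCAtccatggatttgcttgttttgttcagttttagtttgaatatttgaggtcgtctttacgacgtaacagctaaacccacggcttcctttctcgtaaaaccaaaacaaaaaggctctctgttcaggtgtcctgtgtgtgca
Tigit: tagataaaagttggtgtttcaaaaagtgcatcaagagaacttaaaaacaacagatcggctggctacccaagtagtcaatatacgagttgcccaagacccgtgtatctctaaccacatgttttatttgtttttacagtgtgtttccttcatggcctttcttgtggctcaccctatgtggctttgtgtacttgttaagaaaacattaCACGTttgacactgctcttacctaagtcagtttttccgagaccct
Havcr2: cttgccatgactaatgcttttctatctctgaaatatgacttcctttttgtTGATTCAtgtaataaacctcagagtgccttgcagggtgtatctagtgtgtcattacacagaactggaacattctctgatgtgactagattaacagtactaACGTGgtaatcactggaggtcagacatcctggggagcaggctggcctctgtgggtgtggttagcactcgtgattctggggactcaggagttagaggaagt
Cd160: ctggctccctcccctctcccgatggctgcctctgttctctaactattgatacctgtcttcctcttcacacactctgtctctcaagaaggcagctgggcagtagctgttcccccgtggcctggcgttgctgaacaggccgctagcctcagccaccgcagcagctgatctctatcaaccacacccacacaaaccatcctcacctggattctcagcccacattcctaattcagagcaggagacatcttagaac
The Ctla4 stretch held 1 NFAT core and 1 hypoxia core, the Tigit stretch 1 hypoxia core, and the Havcr2 stretch 1 AP-1 site and 1 hypoxia core. The printed Cd160 stretch held no match. Of 32851 RefSeq promoter stretches of this length, 18.6% held the NFAT core, 6.75% the AP-1 site and 16.6% the hypoxia core. Among the stretches not printed, that of Btla held 1 hypoxia core. Those of Pdcd1, Vsir, Entpd1 and the other Cd160 start held no match to any of these motifs. The hypoxia core was thus found beside Ctla4 and Tigit, which were lower, beside Havcr2, which was higher, and beside Btla, which was not called. Such a match is a string of letters and was not tested as a binding site. RefSeq stretches were matched for 8 of the 10 genes, and those of Lag3 and Tox were not available to search.

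Values were TPM, which are relative to gene length and library total. The test was run on the 10039 gene rows whose mean reached 1 TPM, which took in 9 of the 10 genes; a gene was called higher or lower when its adjusted p from limma was under 0.05. Of the 10039 genes, 2398 (23.9%) were called higher with ponatinib and 958 (9.54%) lower. These counts were 1477 and 1571 when libraries were scaled by medians of ratios, which lowers the median fold change of all genes from 0.09 to 0.0019 on the log2 scale. Leaving out DMSO replicate 1 gave 1503 higher genes, leaving out ponatinib replicate 2 gave 1406 higher and 626 lower, and leaving out ponatinib replicate 3 gave 1345 higher. DMSO replicate 3 stood apart from the other DMSO libraries: mitochondrially encoded genes held 4.78% of its TPM, where the rest of the DMSO group had 9.76% and 10.7% and the ponatinib libraries 7.16% to 8.19%. Of 6 CD8 T cell markers, Cd8a, Cd8b1 and Cd3e were called higher and Cd2 lower (log2 fold change -0.78, adjusted p = 0.00272), and Cd3g and Trac were not called. Cd8a, which defines the labelled cell type, was at 227 to 245 TPM with DMSO and 331 to 371 TPM with ponatinib, and Cd4 at 0.713 to 2.84 and 4.23 to 5.32 TPM.

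With ponatinib, Lag3, Ctla4 and Tigit were lower and Cd160, Vsir, Havcr2 and Pdcd1 were higher, while Btla and Tox did not pass the test and Entpd1 lay near 0 in all libraries. Thus 4 of the 9 tested genes were called higher and 3 lower. Havcr2 was among the 9 only through its level with ponatinib, and of the other 8 genes 3 were higher and 3 lower. The background was 33.4% of genes called in either direction. In bulk RNA such as this, fewer cells of a type and less RNA per cell cannot be told apart. The median log2 fold change of those 8 was 0.08, beside 0.09 over all genes tested. With DMSO replicate 3 left out, 4 of the 9 genes were again higher (Havcr2, Pdcd1, Cd160 and Vsir) and 3 lower. In that fit 45.4% of 10016 genes were called (35.3% higher and 10.1% lower). Scaling by medians of ratios gave 3 of the 9 higher (Havcr2, Cd160 and Vsir) and 3 lower. There 30.4% of genes were called (14.7% higher and 15.6% lower). Both counts of higher genes include Havcr2, which was tested only through its level with ponatinib. The groups did not overlap for 7 of the 8 (all but Tox), nor for Havcr2, as for 49.4% of all genes tested.

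**Figure D1:**
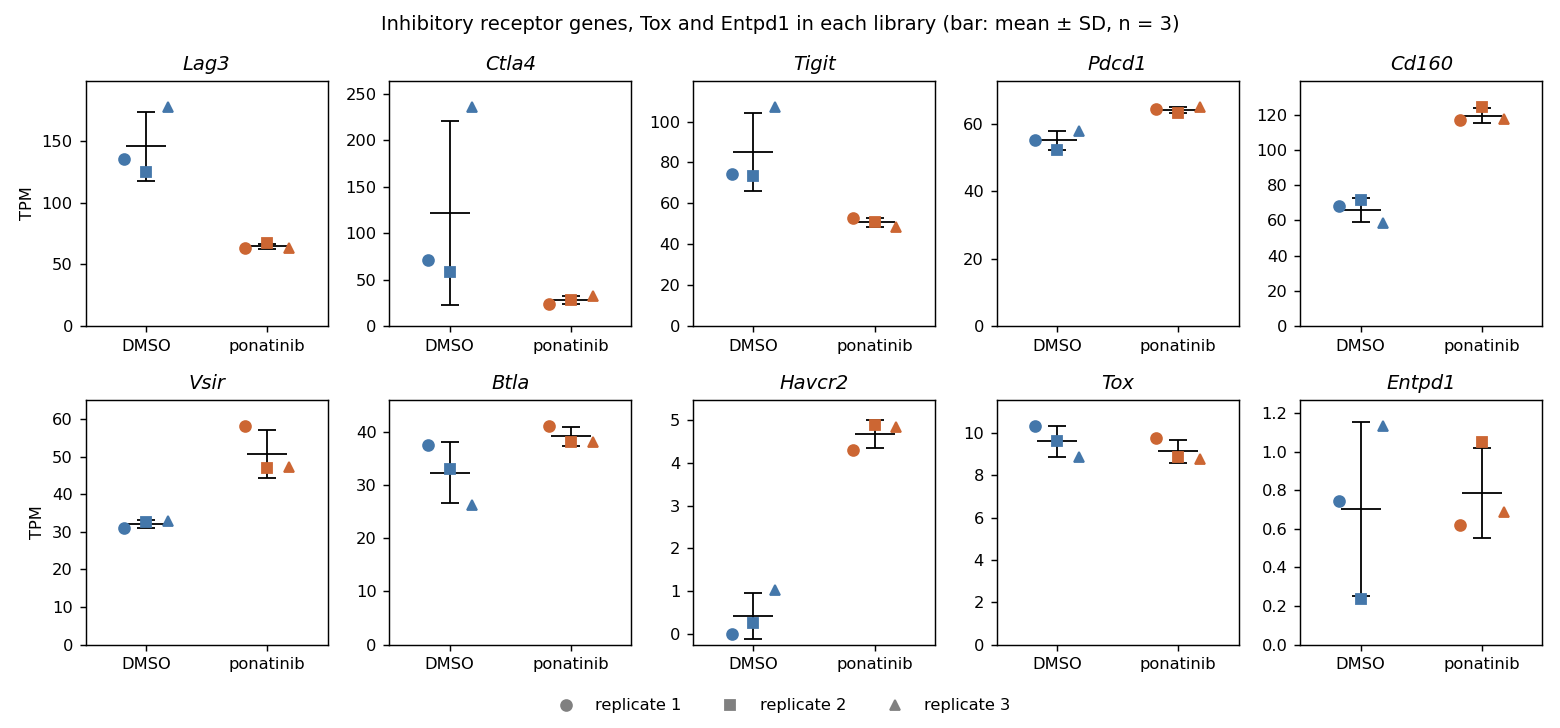
TPM of the 10 genes in each library, with DMSO libraries on the left and ponatinib libraries on the right of each panel; symbols mark the replicate number and bars give the mean ± SD (n = 3). DMSO replicate 3 (triangle) is the highest DMSO library for Ctla4, at 236 TPM, and for Lag3 and Tigit, and the lowest for Cd160 and Btla; the ponatinib libraries of Lag3 lie close together, between 63.7 and 67.4 TPM.

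Lag3 encodes a receptor that binds MHC class II and other ligands and restrains CD8 T cell expansion. Its level was 136, 125 and 178 TPM in the 3 DMSO libraries and 63.7, 67.4 and 63.7 TPM with ponatinib. All ponatinib libraries lay below all DMSO libraries, and they were much closer to each other than the DMSO libraries were. The mean was 146 ± 28.0 TPM with DMSO and 64.9 ± 2.12 TPM with ponatinib (SD, n = 3 in each, here and for the other genes), 2.25-fold lower. The log2 fold change was -1.14 (SE 0.12, limma adjusted p = 6.87e-04), and it was -0.99 (adjusted p = 2.82e-05) without DMSO replicate 3. By the size of its fold change Lag3 ranked 125 among the 10039 genes, counted from the most reduced. The gene (ENSMUSG00000030124) lies at chr6:124904361-124911705 on the minus strand of GRCm38, 16.1 kb from Cd4, which was called higher with ponatinib (adjusted p = 0.0114) at the low levels given above.

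Ctla4 encodes the receptor that outcompetes CD28 for its ligands and is stored in vesicles inside activated T cells. It was at 71.1, 58.5 and 236 TPM with DMSO and at 23.6, 27.8 and 32.0 TPM with ponatinib. Every ponatinib library was below every DMSO library, but DMSO replicate 3 stood more than 3-fold above the other DMSO libraries. The mean was 122 ± 98.8 against 27.8 ± 4.19 TPM, 4.37-fold lower with ponatinib, and 2.33-fold lower when DMSO replicate 3 was left out (64.8 ± 8.87 TPM, n = 2). The log2 fold change was -1.81 (SE 0.45, adjusted p = 0.0188) with all libraries and -1.19 (SE 0.13, adjusted p = 3.77e-04) without DMSO replicate 3. Leaving out ponatinib replicate 1, 2 or 3 ended the call (adjusted p = 0.0712, 0.0553 and 0.0533), as did no filter on low values (0.0536) and robust empirical Bayes (0.0638). The gene (ENSMUSG00000026011) lies at chr1:60887000-60915832 on the plus strand, between Cd28, 114 kb away, and Icos, 62.1 kb away. Those costimulatory receptor genes of the same locus did not pass the test. Cd28 was at 91.8 ± 1.32 and 84.7 ± 3.07 TPM (-0.12, adjusted p = 0.106), and it was called lower under 2 other scalings, medians of ratios (-0.21, adjusted p = 0.0245) and quantile normalization (-0.19, 0.0247). Icos was at 77.2 ± 12.2 and 81.0 ± 4.74 TPM (0.08, adjusted p = 0.605) and was called higher without DMSO replicate 3 (0.20, 0.0332).

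DMSO replicate 3 stood apart for some of the receptor genes and not for others. On the log2(TPM + 1) scale its Ctla4 level exceeded the mean of DMSO replicates 1 and 2 by 1.85, rank 15 of 10039 genes counted from the highest such gap, where the median size of the gap over all genes was 0.16. The gap was 0.45 for Lag3, 0.53 for Tigit and 0.86 for Havcr2. It was -0.26 for Cd160 and -0.41 for Btla, and it was smaller than the all-gene median in size for Pdcd1 (0.11), Vsir (0.05) and Tox (-0.15). For Ctla4, Lag3, Tigit, Cd160 and Btla, DMSO replicate 3 thus lay farther from the ponatinib libraries than the other DMSO libraries did, and for Havcr2 nearer to them.

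**Figure D2:**
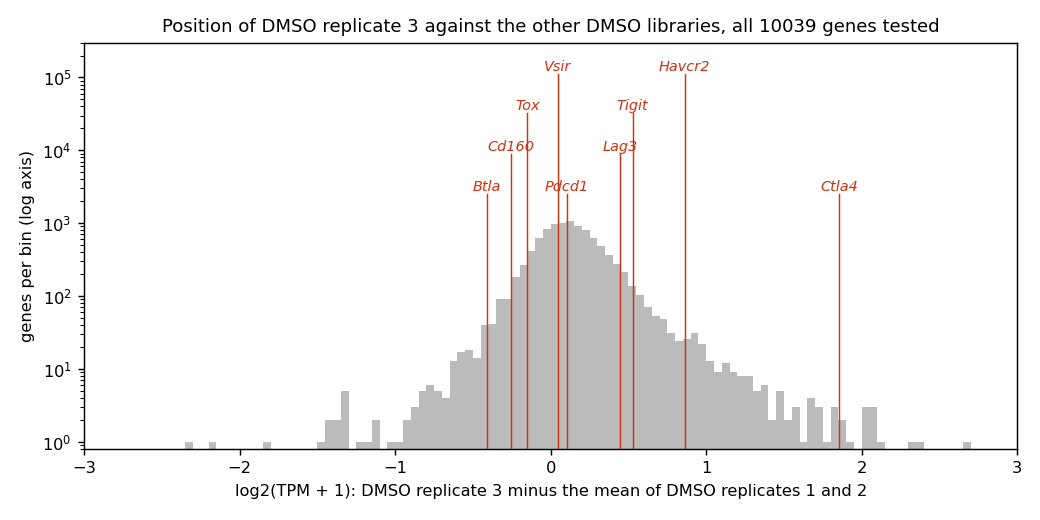
Histogram of the difference on log2(TPM + 1) between DMSO replicate 3 and the mean of DMSO replicates 1 and 2 over the 10039 genes tested (log axis for the number of genes; 3 genes lie outside the plotted range), with red lines at the receptor genes and Tox. Ctla4, at 1.85, lies in the far right tail, and Vsir and Pdcd1 lie near the centre.

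Tigit encodes a receptor that competes with the activating receptor CD226 for the ligand PVR. Its levels were 74.3, 73.5 and 107 TPM with DMSO and 53.0, 50.7 and 48.4 TPM with ponatinib, without overlap. The mean fell from 84.9 ± 19.1 to 50.7 ± 2.28 TPM, 1.68-fold lower, and the log2 fold change was -0.71 (SE 0.14, adjusted p = 0.00667). Without DMSO replicate 3 the DMSO mean was 73.9 ± 0.560 TPM (n = 2) and the log2 fold change -0.54 (adjusted p = 3.24e-04). Tigit (ENSMUSG00000071552) lies at chr16:43648867-43664146, on the minus strand. Its rival Cd226 moved the other way, from 40.2 ± 3.62 to 71.5 ± 4.32 TPM (0.82, adjusted p = 5.30e-04). Within each library, Cd226 stood at 0.595, 0.528 and 0.349 of the Tigit level with DMSO and at 1.44, 1.34 and 1.44 of it with ponatinib. The DMSO libraries therefore held more Tigit than Cd226 and the ponatinib libraries more Cd226 than Tigit. Such a ratio does not depend on how libraries are scaled. Its separation by group follows in part from the calls of both genes.

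Ctla4 and Tigit are known to be high in regulatory T cells. Foxp3, which defines those cells, was at 0.778 to 1.37 TPM with DMSO and 6.78 to 10.4 TPM with ponatinib (2.10, adjusted p = 3.52e-04). Over the whole list of 6 CD4 and regulatory T cell markers, 3 rose and 1 fell, beside 23.9% and 9.54% of all genes tested. The sum of the 6 was 18.6 to 28.1 TPM with DMSO and 28.9 to 32.8 TPM with ponatinib. Ikzf4 (0.04, adjusted p = 0.850) and Lrrc32 (-0.28, adjusted p = 0.134) were not called. Lrrc32 was called lower with medians of ratios (adjusted p = 0.0413) and with quantile normalization (0.0363). The member that fell, the CD4 lineage factor gene Zbtb7b (-0.84, adjusted p = 0.0442), was not called when DMSO replicate 1 (0.0904) or ponatinib replicate 1, 2 or 3 (0.112, 0.0999 and 0.123) was left out. Their part in the Ctla4 and Tigit levels was not tested.

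Cd160 encodes a receptor, anchored to the membrane by a lipid in its common form, that binds the TNF receptor family member HVEM (gene Tnfrsf14) and is found on activated CD8 T cells and NK cells. It was at 68.3, 71.7 and 58.4 TPM with DMSO and at 117, 124 and 118 TPM with ponatinib. The groups were far apart compared with the spread within either. The mean rose from 66.1 ± 6.88 to 120 ± 4.09 TPM, 1.81-fold, with a log2 fold change of 0.85 (SE 0.08, adjusted p = 4.91e-04), and of 0.77 (adjusted p = 5.64e-05) without DMSO replicate 3. Cd160 (ENSMUSG00000038304) lies at chr3:96798763-96829351 on the minus strand and overlaps the start of Pdzk1 on the other strand by 68 bases; Pdzk1 was at 0.261 to 0.614 TPM in the 6 libraries. Among 5 NK cell markers other than Eomes, no library reached 1 TPM for any, and the sum of all 6 was 18.6 to 30.9 TPM with DMSO and 34.1 to 43.3 TPM with ponatinib, nearly all of it Eomes.

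Vsir encodes VISTA, an inhibitory receptor and ligand that is, unlike most checkpoints, already high on naive T cells. Its level was 31.0, 32.7 and 32.9 TPM with DMSO and 58.3, 46.9 and 47.3 TPM with ponatinib. DMSO replicate 3 did not stand apart here, and the highest library was ponatinib replicate 1. The mean rose from 32.2 ± 1.04 to 50.8 ± 6.43 TPM, 1.58-fold (log2 fold change 0.64, SE 0.09, adjusted p = 0.00189), and without DMSO replicate 3 the change was 0.65 (adjusted p = 0.00138). The gene (ENSMUSG00000020101) lies at chr10:60346851-60372684 on the plus strand, inside the span of Cdh23 on the other strand, which was at 0.890 to 1.21 TPM. Whether the library kit kept strand is not stated, so reads of such overlapping genes may not have been told apart.

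Havcr2 encodes TIM-3, a receptor of late, terminally exhausted T cells and of myeloid cells. It was listed at 0, 0.247 and 1.03 TPM with DMSO and at 4.29, 4.89 and 4.85 TPM with ponatinib. All ponatinib libraries lay above all DMSO libraries, at levels that were low beside the other receptors. Its mean over all libraries passed the minimum of 1 TPM only through the ponatinib group, so the fit with no filter on low values is given for it. On log2(TPM + 1) that fit gave a fold change of 2.06 (SE 0.26, adjusted p = 0.00483). Among the filtered rows the change was 2.34 without DMSO replicate 3. The size depends on the pseudocount, and with 0.1 TPM in place of 1, again among the filtered rows, it was 3.81 (SE 0.74). The DMSO mean of 0.425 ± 0.536 TPM is too close to 0 for a ratio to be read from it. Myeloid markers were higher in the same libraries: the sum of 10 was 2.64 to 3.01 TPM with DMSO and 7.55 to 10.8 TPM with ponatinib. The 2 above 1 TPM on average, Cd68 and Fcer1g, were both called higher, as were 23.9% of all genes tested. Fcer1g, at 0.607 to 0.936 TPM with DMSO and 3.12 to 5.04 TPM with ponatinib, was tested only through its level with ponatinib, as was Havcr2. Cd68 (0.42, adjusted p = 0.0234) lost its call without any 1 library other than DMSO replicate 3 (adjusted p from 0.0552 to 0.0834). Of the others, Lyz2 was at 0.0422 to 0.260 TPM with DMSO and 1.13 to 2.81 TPM with ponatinib, Tyrobp at 0 to 0.278 and 0 to 1.64 TPM, and Itgax at 0.0124 to 0.0359 and 0.123 to 0.376 TPM. Csf1r, Itgam, Adgre1, Flt3 and Clec9a were under 0.2 TPM in every library. Their part in the Havcr2 level was not tested. The gene (ENSMUSG00000020399) lies at chr11:46454935-46481255 on the plus strand.

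Pdcd1 encodes PD-1, the receptor for PD-L1 and PD-L2. It was at 55.2, 52.1 and 57.8 TPM with DMSO and at 64.4, 63.2 and 64.9 TPM with ponatinib, a small difference without overlap. The mean was 55.0 ± 2.84 and 64.2 ± 0.863 TPM, 1.17-fold higher, with a log2 fold change of 0.22 (SE 0.06, 95% confidence interval 0.09 to 0.35, adjusted p = 0.0196), and 0.25 (adjusted p = 0.00522) without DMSO replicate 3. Medians of ratios ended the call (0.12, adjusted p = 0.0741). So did leaving out any library but DMSO replicate 3, with adjusted p from 0.0561 to 0.0721. Pdcd1 (ENSMUSG00000026285) lies at chr1:94038305-94052553 on the minus strand.

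Btla encodes a receptor for HVEM that is found on resting T cells and B cells. It was at 37.6, 33.1 and 26.3 TPM with DMSO and at 41.1, 38.1 and 38.1 TPM with ponatinib. The highest DMSO library came within 1 TPM of the lowest ponatinib library. The log2 fold change of 0.28 (SE 0.12, 95% confidence interval 0.01 to 0.56) did not pass the test (adjusted p = 0.104). Without DMSO replicate 1 it did, at 0.39 (adjusted p = 0.0387), and without DMSO replicate 3 it was 0.15 (adjusted p = 0.127). Of 6 B cell markers that were tested, limma called 4 higher with ponatinib and 0 lower (0 at an unadjusted p under 0.05). They were Cd79a (log2 fold change 1.08), Cd79b (0.67), H2-Aa (1.84) and Cd74 (0.53). Over all genes tested, 23.9% were higher and 9.54% lower. Cd79a, at 0.192 to 2.03 TPM with DMSO and 2.45 to 2.73 TPM with ponatinib, passed the minimum mean only through the ponatinib group. Cd79a was not called when any library but DMSO replicate 3 was left out (adjusted p from 0.0874 to 0.104), nor H2-Aa without ponatinib replicate 1 or 3 (0.0509 and 0.0511). H2-Ab1 (-0.82, adjusted p = 0.128) and Ighm, at 124 to 159 TPM over the 6 libraries, were not called. Ms4a1, Pax5 and Cd22 stayed under 1 TPM in every library. Their part in the Btla level was not tested. Btla (ENSMUSG00000052013) lies at chr16:45224315-45257670 on the plus strand.

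Tox was at 10.3, 9.60 and 8.88 TPM with DMSO and at 9.75, 8.87 and 8.78 TPM with ponatinib. The groups overlapped, and their means of 9.61 ± 0.730 and 9.13 ± 0.538 TPM differed by less than the spread between replicates. The log2 fold change was -0.07, with a 95% confidence interval of -0.27 to 0.14 (adjusted p = 0.598), and -0.12 (interval -0.30 to 0.07, adjusted p = 0.268) without DMSO replicate 3. Tox (ENSMUSG00000041272) lies at chr4:6686353-6991557 on the minus strand. Of its paralogs, Tox4 was at 36.3 ± 0.765 and 38.8 ± 2.10 TPM (0.09, adjusted p = 0.270), and Tox2 was at or under 0.169 TPM in every library.

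Entpd1 was at 0.743, 0.234 and 1.14 TPM with DMSO and at 0.618, 1.05 and 0.689 TPM with ponatinib. It lay under the minimum mean, and in the fit with no filter on low values its log2 fold change was 0.10 (95% confidence interval -0.41 to 0.60, adjusted p = 0.793, where 21.5% of 15090 genes were called). Without DMSO replicate 3 it was 0.28 (adjusted p = 0.317). The gene (ENSMUSG00000048120) lies at chr19:40612366-40741602 on the plus strand. Nt5e, which encodes the next enzyme in the path from ATP to adenosine, was at 2.64 ± 0.225 and 3.85 ± 1.09 TPM and did not pass the test (0.39, adjusted p = 0.0966).

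**Figure D3:**
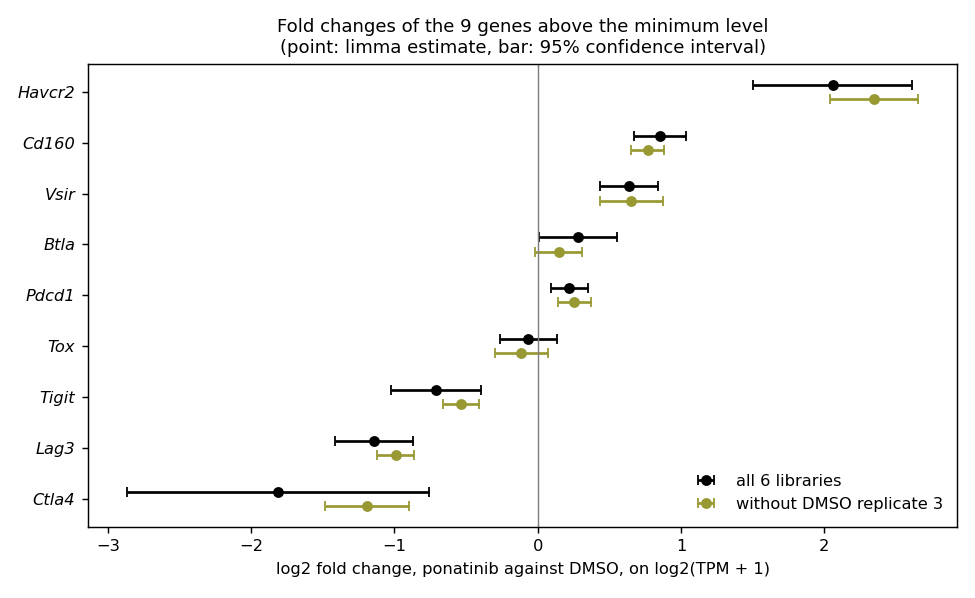
Log2 fold change, ponatinib against DMSO on log2(TPM + 1), of the 9 genes that were tested, from all 6 libraries (black) and without DMSO replicate 3 (olive); points are limma estimates and bars 95% confidence intervals. Ctla4 has the widest interval with all libraries (-2.86 to -0.76) and a narrower one without DMSO replicate 3 (-1.49 to -0.90).

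The order of the receptors changed with treatment. In DMSO libraries 1 and 2 Lag3 was the highest of the 10 genes and in DMSO replicate 3 Ctla4 was; in all 3 ponatinib libraries Cd160 was. Ctla4 ranked 3, 4 and 1 with DMSO and 7 in each ponatinib library. With DMSO, the Ctla4 range of 58.5 to 236 TPM spanned those of Lag3, Tigit and part of Cd160, and Btla and Vsir overlapped as well. With ponatinib, Lag3 (63.7 to 67.4 TPM) could not be separated from Pdcd1 (63.2 to 64.9 TPM), nor Vsir (46.9 to 58.3 TPM) from Tigit (48.4 to 53.0 TPM). Tox ranked 8 in all 6 libraries, and Havcr2 and Entpd1 shared the last places.

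The summed TPM of the 8 receptor genes was 473, 447 and 697 with DMSO and 425, 423 and 417 with ponatinib, so that DMSO replicate 3 alone stood high. Cd160 held 13.0% ± 4.04 of that sum with DMSO and 28.4% ± 0.949 with ponatinib. Lag3 held 27.4% ± 1.65 and 15.4% ± 0.479, and Ctla4 20.6% ± 11.4 and 6.60% ± 1.06. Within a library, the ratio of Cd160 to Lag3 was 0.504, 0.574 and 0.329 with DMSO and 1.84, 1.85 and 1.85 with ponatinib. The ratio of Pdcd1 to Lag3 was 0.407, 0.417 and 0.325 with DMSO and 1.01, 0.938 and 1.02 with ponatinib. The ratio of Cd28 to its competitor Ctla4 was 1.29, 1.55 and 0.396 with DMSO and 3.73, 2.98 and 2.58 with ponatinib. These ratios to Lag3 and Ctla4 did not overlap between groups, which follows in part from the lower calls of those genes. The ratio of Tnfrsf14 to Btla did overlap, at 0.300, 0.270 and 0.443 with DMSO and 0.466, 0.447 and 0.397 with ponatinib. How often ratios of other gene pairs separate the groups was not tested.

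**Figure D4:**
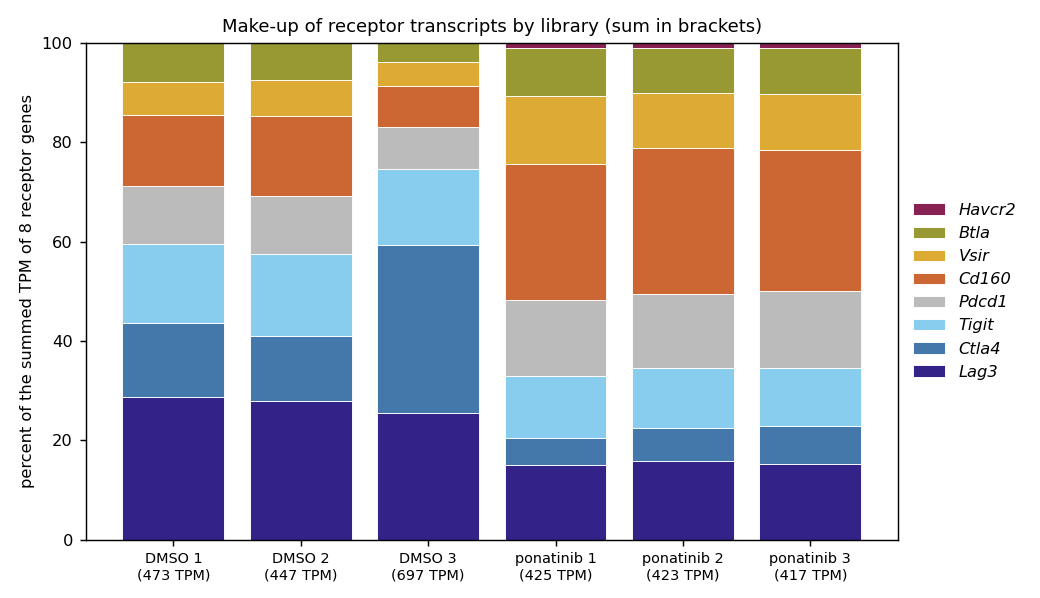
Percent of the summed TPM of the 8 receptor genes held by each gene, one bar per library, with the sum under each bar. Cd160 takes 27.5% to 29.4% of the ponatinib bars and 8.38% to 16.0% of the DMSO bars, and Ctla4 takes 33.8% of the bar of DMSO replicate 3.

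Among ligands and counter-receptors of these proteins, 11 of 16 listed genes were tested, and 7 were higher and 3 lower with ponatinib, also without DMSO replicate 3. The median was 0.54, beside 0.09 for all genes, of which 23.9% were higher and 9.54% lower; these shares stand behind each list that follows as well. The PD-1 ligand genes Pdcd1lg2 (PD-L2) and Cd274 (PD-L1) rose from 10.2 ± 1.67 to 20.2 ± 2.23 TPM and from 10.8 ± 2.02 to 18.7 ± 2.01 TPM (adjusted p = 0.00160 and 0.00487). HVEM, the ligand of CD160 and BTLA, has the gene Tnfrsf14, which rose from 10.6 ± 1.47 to 17.1 ± 2.02 TPM (0.64, adjusted p = 0.00633). Tnfsf14, encoding LIGHT, another ligand of HVEM, rose from 22.9 ± 0.392 to 35.8 ± 1.04 TPM. Lgals3, encoding galectin-3, which binds LAG-3, rose by 1.10 on the log2 scale (adjusted p = 0.00205), and Hmgb1, encoding a TIM-3 ligand, by 0.33 (adjusted p = 0.00409). Cd80, encoding a ligand of CTLA-4 and CD28, fell from 8.94 ± 1.81 to 3.24 ± 1.63 TPM (-1.28, adjusted p = 0.00872). Cd86, encoding the other ligand of that pair, was called higher, from 1.36 ± 0.391 to 2.42 ± 0.420 TPM (0.54, adjusted p = 0.0322). That call was lost when DMSO replicate 1 or 2 or ponatinib replicate 1 or 3 was left out (adjusted p from 0.0833 to 0.115). The other lower genes were Pvr, the ligand of TIGIT and CD226 (-0.52, adjusted p = 0.0188), and Lgals9, encoding the TIM-3 ligand galectin-9 (-0.71, adjusted p = 0.0422). Leaving out ponatinib replicate 1, 2 or 3 ended both calls, at 0.0695, 0.0588 and 0.0512 for Pvr and 0.0985, 0.113 and 0.112 for Lgals9, which left 1 lower gene each time. Cd274, Cd80, Cd86, Pvr and Lgals9 are named here after their values were seen. The ligand genes Fgl1 and Igsf11 were listed at 0 in all libraries.

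Of the paired receptors that share those ligands, Cd226 and Cd96 were higher, 2 of 4 tested, with a median of 0.45, and limma called 0 lower (1, Cd28, at an unadjusted p under 0.05). With medians of ratios or quantile normalization 1, Cd28, was lower, and without DMSO replicate 3 Icos was higher as well. Cd96, another receptor for PVR, rose from 32.6 ± 4.51 to 59.4 ± 3.42 TPM (0.85, adjusted p = 9.29e-04). Pvrig was listed at 0 in all libraries.

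Of other inhibitory receptor genes, 6 of 12 were tested, with 1 higher and 1 lower and a median of 0.01 (1 higher and 3 lower without DMSO replicate 3). Klrc1, which encodes NKG2A, fell from 12.1 ± 2.12 to 7.31 ± 1.07 TPM (-0.65, adjusted p = 0.0108). Its partner Klrd1 (CD94) was at 24.8 ± 1.51 and 24.6 ± 1.77 TPM (-0.01, adjusted p = 0.919). Pecam1, an adhesion molecule with an inhibitory tail, was called higher (0.48, adjusted p = 0.0270). That left 0 higher genes when DMSO replicate 1 or 2 (0.0808 and 0.0749) or ponatinib replicate 1 or 3 (0.0820 and 0.0768) was left out. Cd101 did not pass the test (0.13, adjusted p = 0.406). Cd5 and Cd6, which dampen T cell receptor signals, were not called with all libraries (0.02 and -0.07, adjusted p = 0.887 and 0.636) and were lower without DMSO replicate 3 (-0.12 and -0.21, adjusted p = 0.0433 and 0.00970). Klrd1 and Cd5 are named after their values were seen.

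Of transcription factors known from exhausted T cells, with the TOX family, 17 of 21 were tested. Among them 8 were higher and 4 lower, with a median of 0.29 (9 higher and 4 lower without DMSO replicate 3). Leaving out DMSO replicate 1 or 2 gave 7 higher, and leaving out ponatinib replicate 2 or 3 gave 6. Without DMSO replicate 2, 5 were lower. Tcf7, which encodes TCF-1 of stem-like T cells, rose from 117 ± 10.5 to 211 ± 22.7 TPM and Id2 from 31.9 ± 1.90 to 44.9 ± 1.59 TPM (adjusted p = 7.70e-04 and 0.00162). Nfatc2, encoding an NFAT factor that can induce exhaustion genes, rose by 0.45 (adjusted p = 0.00315). Bhlhe40 fell from 125 ± 31.1 to 44.1 ± 6.89 TPM (-1.47, adjusted p = 9.91e-04).

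Among mediators of inhibitory signalling, 14 of 14 were tested, with 6 higher and 3 lower and a median of 0.18 (7 and 3 without DMSO replicate 3). With medians of ratios or quantile normalization, and without ponatinib replicate 2 or 3, 3 were higher. Ptpn6, encoding the phosphatase SHP-1 recruited by BTLA and PD-1, fell from 176 ± 1.59 to 147 ± 2.80 TPM (-0.25, adjusted p = 0.00401), and Cblb, encoding an E3 ligase that restrains CD28 signals, from 70.1 ± 19.8 to 36.7 ± 0.696 TPM (-0.88, adjusted p = 0.00601). Another phosphatase gene of the list, Ptpn11, was called higher (0.23, adjusted p = 0.0380) and is named after its value was seen. That call was lost without any 1 library other than DMSO replicate 3 (adjusted p from 0.0706 to 0.122). The adaptor genes Dok2 and Pag1 rose, from 29.5 ± 1.04 to 43.2 ± 0.181 TPM and from 6.46 ± 0.257 to 11.7 ± 1.31 TPM (adjusted p = 6.62e-04 and 0.00133).

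Genes of traffic, shedding and turnover of the receptors showed 2 higher and 0 lower of 11 tested, with a median of 0.12. With so few genes this is close to the 23.9% and 9.54% over all genes, so these counts are no result about the list. Leaving out DMSO replicate 3 gave 4 higher genes, leaving out DMSO replicate 1 or ponatinib replicate 1 or 2 gave 1, and leaving out ponatinib replicate 3 gave 0. By an unadjusted p under 0.05, limma also gave 0 lower; with medians of ratios or quantile normalization 1 was higher and 2, Def6 and Fbxo38, were lower. Adam10, encoding a protease that sheds LAG-3, was at 40.5 ± 5.10 and 53.6 ± 2.08 TPM (0.40, adjusted p = 0.0114; 0.0512 without ponatinib replicate 3). Ap1m1, Rab11a and Def6 were at 0.19, 0.26 and -0.09 on the log2 scale (adjusted p = 0.0268, 0.0599 and 0.196), and Ap1m1 was not called when DMSO replicate 1 (0.0995) or ponatinib replicate 1, 2 or 3 (0.0762, 0.0721 and 0.0843) was left out.

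In the adenosine pathway 3 of 11 tested genes were higher and 1 lower (median 0.19), close to the shares of 23.9% and 9.54% over all genes, so these counts are no result about the pathway. Adora2a, encoding the inhibitory adenosine receptor of T cells, rose from 16.8 ± 1.5 to 23.8 ± 1.09 TPM (0.49, adjusted p = 0.00391). Ada, encoding adenosine deaminase (0.30, adjusted p = 0.0160), was not called when ponatinib replicate 1 or 3 was left out (0.0577 and 0.0604). Entpd5 (0.32, adjusted p = 0.0235) was not called when DMSO replicate 2 (0.0572) or ponatinib replicate 1 or 2 (0.0743 and 0.0924) was left out. Adora2b, another adenosine receptor gene and the lower one (-0.63, adjusted p = 0.0308), was not called when DMSO replicate 1 (0.0634) or ponatinib replicate 1 or 3 (0.0990 and 0.107) was left out. Without ponatinib replicate 1, or with medians of ratios, 1 gene of this list was higher.

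**Figure D5:**
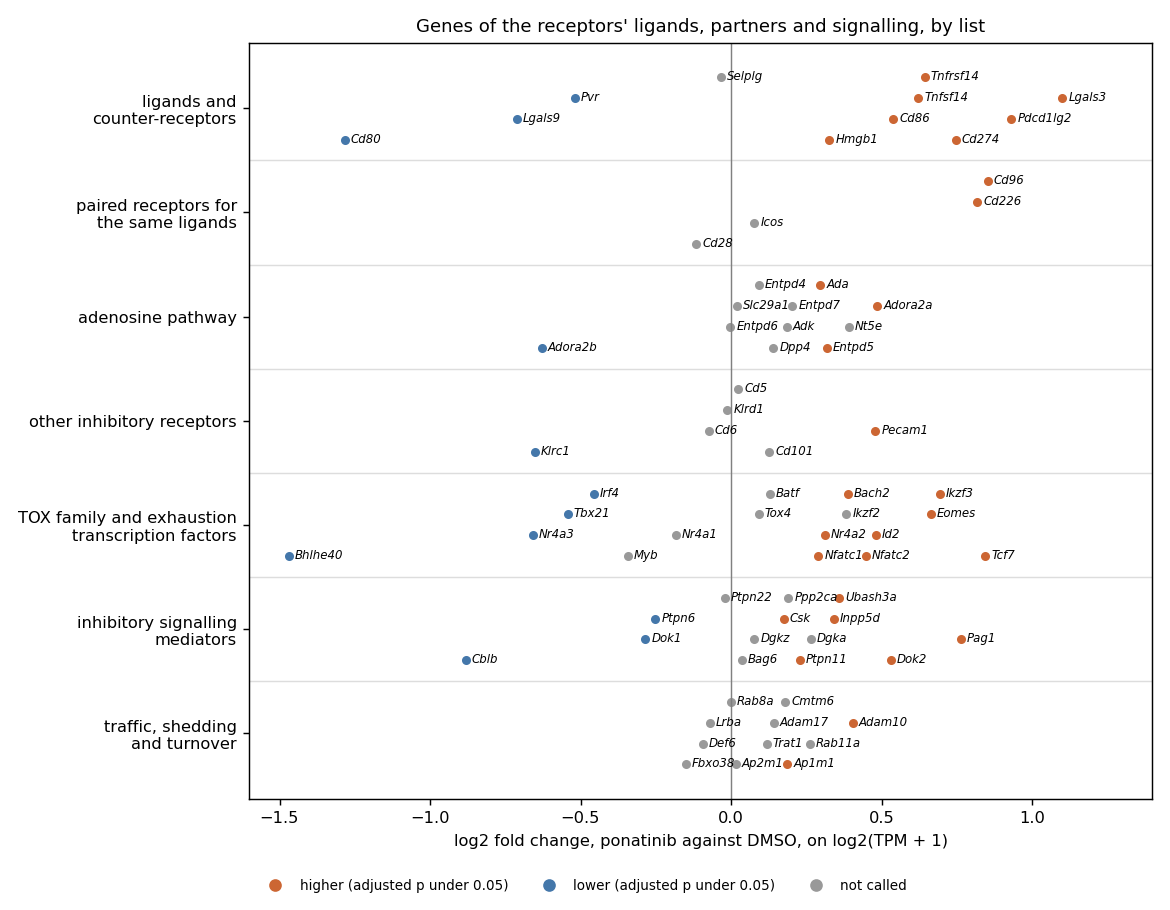
Log2 fold change, ponatinib against DMSO on log2(TPM + 1), of each tested gene of the 7 lists around the receptors; orange points were called higher, blue points lower and grey points not called (limma adjusted p under 0.05). Points are spread vertically within a list only to separate the names. The ligand list holds called genes on both sides, with Lgals3 at 1.10 and Cd80 at -1.28.

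The genes whose log2(TPM + 1) followed each receptor most closely over the 6 libraries are given as a description, and every correlation is over the same 6 libraries of both treatments. Among the genes whose mean reached 10 TPM, 6465 for most receptors, Ctla4 was followed most closely by Myc, Hif1a and Sh3glb1 (Pearson's r from 0.998 to 0.999). Tigit was followed by Oas3, Trim30a and Isg15 (0.997 to 0.999), and Lag3 by Plekha2, Mfhas1 and Gys1 (0.998 to 0.999). Cd160 was followed by Nol6, Jade2 and Xcl1 (0.998 to 0.999), Vsir by Pglyrp2, Nsg2 and Arhgef18 (0.997), Pdcd1 by Zfand5, Gnl3l and Erbin (0.997 to 0.999), and Havcr2 by Dusp2, Ssbp3 and Clptm1l (0.998 to 0.999). Between 251 and 642 genes had r of at least 0.95 with each of these 7. Btla and Tox had fewer: 17 genes reached it for Btla, led by Sumo3, Tmem14c and Vps53 (0.973 to 0.982), and 1 for Tox, Adgre5 (0.980), followed by Galns and Glmp (0.95 and 0.94).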

How the data were processed

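RNA-seq of CD8 T cells was deposited by the authors as 1 table with 1 column for each of 6 libraries (3 DMSO, 3 ponatinib); groups and replicate numbers came from sample titles. Libraries were made from total RNA with a NEBNext Ultra II kit, per the labels' protocols. The deposited values were treated as TPM, since every column summed to 1000000, although the table is named as normalized counts. Tools listed in the submitters' processing notes, with no role given, were Salmon 1.5.1, fastp 0.19.5 and DESeq2 1.22.1, and the build was GRCm38. TPM keep no depth, so no counting interval is given. Of 43072 rows, 22095 were gene rows and 20977 transcript rows; gene rows, which held 92.9% to 93.2% of TPM, were used as deposited. Transcript rows of Havcr2, Entpd1 and Vsir were added to them only as an alternative. Gene symbols and positions are those of GENCODE M21 (GRCm38), in which 22011 gene rows had an entry.

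Gene rows with a mean of at least 1 TPM were compared as log2(TPM + 1), a scale on which changes of low genes come out too small, with limma 3.58.1 (lmFit, eBayes with intensity trend) in R 4.3.3, two-sided, with Benjamini-Hochberg adjustment over all rows kept. Every adjusted p is from such a fit. Where a fold is given off the log2 scale, it divides one group's mean TPM by the other's.

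The genes, lists, motifs and tests were chosen with earlier results of these data known. Named genes are all 10, from each list the 4 tested genes with the smallest p, 8 preset partners, and per gene the 3 with the highest Pearson's r among those of at least 10 TPM. Alternatives were transcript rows added, medians of ratios, quantile normalization, a pseudocount of 0.1 TPM, a minimum of 10 TPM, no filter, robust empirical Bayes, no intensity trend, a replicate block and leaving out each library. A B cell marker, and the sum of the list that holds it, are not reported here.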

Additional observations from a re-analysis of the deposited data

How the results depend on the processing

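The directions of the 9 tested genes were the same under every alternative in which they were tested; a minimum of 10 TPM removed Havcr2 and Tox, which left 3 higher and 3 lower. Lag3, Tigit, Cd160 and Vsir kept their calls under every alternative listed, and Tox was called in none of its 14. Havcr2 was called in each of its 14, but it passed the minimum mean only through its level with ponatinib. Only its fit with no filter (limma adjusted p = 0.00483) does not rest on that minimum. The Pdcd1 log2 fold change was 0.12 and not called with medians of ratios, and 0.18 to 0.25 with 1 library left out. Ctla4 was at -1.81 and not called with no filter or robust empirical Bayes, and at -2.19 to -1.19 with 1 library left out. Btla was at 0.15 to 0.39 with 1 library left out, and was called without DMSO replicate 1. Entpd1, run with no filter in combinations chosen after seeing the data, was at -0.10 with transcript rows added and at -0.12 to 0.28 with 1 library left out, including -0.0079 without ponatinib replicate 2. The cause of these changes was not tested. Called higher were 1477 gene rows and called lower 1571 with medians of ratios, and 1446 were lower with quantile normalization; with 1 library left out the counts were 1345 to 3534 higher and 626 to 1011 lower.

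With a replicate block, 2300 gene rows were higher and 922 lower, and 4 (Havcr2 among them) and 3 of the receptor genes. Same-numbered libraries did not deviate together (Pearson's r over genes of -0.03, 0.06 and 0.01 for numbers 1, 2 and 3). With 3 libraries per group, these values cannot settle whether the numbers pair libraries. The table records no depth. The standard error of Btla (0.12) was larger than that of Pdcd1 (0.06), which was called at a smaller difference.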
